A study of Mus musculus with 16 samples.

Results

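The 10 genes described here are cytokines of the interleukin-1 family (Il1b, Il1a and Il18), the interleukin-1 receptor antagonist (Il1rn) and the inflammasome machinery (Nlrp3, Nlrc4, Mefv, Pycard, Casp1 and Gsdmd). They were chosen by name, through the gene symbol of each array probe, out of 23514 genes on the array. All 10 had a probe, and 9 were bright enough to test. Il1a was not.

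The study hybridised 16 Agilent mouse arrays in 1 colour, with 4 arrays per population and 4 populations, all sorted from C57BL/6 mice that had received no treatment. The CCR2+ macrophages were CCR2Hi and MHCIIHi, the MHC-IIHi macrophages were CCR2Neg, MHCIIHi and CD11cLow, and the MHC-IIlo macrophages were CCR2Neg, CD11cNeg and low for MHCII. These macrophages came from minced and enzyme-digested hearts, as live CD45+, MerTK+, CD64+ and Ly6cNeg cells, and Ly6cHi monocytes came from blood, with no further gate given in the labels. The labels give neither cell numbers nor the mice behind each replicate, so p-values here measure only the spread between these samples, which may be technical.

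Interleukin-1 beta and interleukin-18 are made as inactive precursors. A sensor protein such as NLRP3, NLRC4 or pyrin (the product of Mefv) recruits the adaptor ASC (the product of Pycard), which gathers caspase-1, and caspase-1 cuts the precursors and the pore protein gasdermin D, through whose pores the mature cytokines leave the cell. Interleukin-1 alpha and beta act through the same receptor, and the receptor antagonist encoded by Il1rn occupies that receptor without signalling. In macrophages the Il1b and Nlrp3 transcripts are known to be induced by NF-kappaB signalling, a step called priming. RNA levels do not measure cleavage or release of the protein.

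The 250 bases before the annotated transcription start are shown for the 4 members whose RNA was higher in CCR2+ than in MHC-IIlo macrophages, from RefSeq on GRCm38.p6 (mouse), 5′ to 3′ on the gene's strand. Capitals mark every match to 5 motifs searched on both strands.
Il1b, chr2:129371140-129371389, minus strand: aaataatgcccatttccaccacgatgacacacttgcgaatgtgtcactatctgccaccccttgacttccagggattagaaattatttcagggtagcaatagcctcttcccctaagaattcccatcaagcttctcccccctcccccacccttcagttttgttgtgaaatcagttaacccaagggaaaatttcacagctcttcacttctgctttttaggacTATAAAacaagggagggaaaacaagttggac
Il1rn, the first of 3 listed starts, chr2:24336610-24336859, plus strand: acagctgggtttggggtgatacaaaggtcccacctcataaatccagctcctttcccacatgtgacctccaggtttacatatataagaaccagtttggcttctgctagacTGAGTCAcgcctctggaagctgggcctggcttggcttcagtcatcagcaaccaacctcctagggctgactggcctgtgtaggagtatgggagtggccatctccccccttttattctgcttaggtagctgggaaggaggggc
Nlrp3, the first of 2 listed starts, chr11:59542436-59542685, plus strand: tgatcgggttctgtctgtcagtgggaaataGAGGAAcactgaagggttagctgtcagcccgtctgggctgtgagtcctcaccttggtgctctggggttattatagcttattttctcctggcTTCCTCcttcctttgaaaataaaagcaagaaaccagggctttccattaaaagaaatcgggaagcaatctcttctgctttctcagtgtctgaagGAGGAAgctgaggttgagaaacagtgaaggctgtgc
Mefv, chr16:3718125-3718374, minus strand: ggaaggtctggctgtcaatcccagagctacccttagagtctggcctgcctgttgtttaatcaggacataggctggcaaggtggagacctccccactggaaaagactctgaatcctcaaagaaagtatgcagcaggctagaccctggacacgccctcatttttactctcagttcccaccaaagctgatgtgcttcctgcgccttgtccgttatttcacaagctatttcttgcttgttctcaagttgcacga
The motifs were the TATA box TATAAA, the AP-1 site TGANTCA, the C/EBP site TTGCNNAA, the ETS core GAGGAA of the type bound by PU.1, and the kappaB consensus, and no match overlapped a match to another motif. Positions count from the annotated start as 0. Il1b held a TATA box at -31 to -26, Il1rn an AP-1 site at -141 to -135, and Nlrp3 3 ETS cores, at -220 to -215, -129 to -124 and -36 to -31. Mefv held none of the 5. In windows of 300 bases reaching 50 bases past the start, TATAAA on either strand was found in 4 of the 9 members with an entry. It was found in 13.6% of 32851 windows of the same length. Il1b and Il1a held it at -31 to -26 and -32 to -27. In Il18 it lay on the opposite strand at -175 to -170, and in Il1rn on the opposite strand at 14 to 19, past the third start. The ETS core was found in 4 members, against 28.3% of windows. AP-1 was found in 2 members (7.81% of windows), C/EBP in 2 (10.8%), and the kappaB consensus in 1 (8.46%), at the second start of Nlrp3. These matches describe letters only. Il1rn had 3 listed starts and Nlrp3 had 2, and so both had more chances of a match.

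Each array carried a signal well above background at 52.8% to 69.3% of its spots, and correlations between arrays of 1 group ran from 0.916 to 0.981. That share was 52.8% to 60.1% on monocyte arrays, 61.7% to 68.3% on CCR2+, 58.1% to 69.3% on MHC-IIHi and 58.5% to 69.3% on MHC-IIlo arrays. The 75th percentile of the signal was 819 to 996 on monocyte arrays and 941 to 1670 on macrophage arrays. Levels below are log2 processed signals relative to the 75th percentile of the array, so that 0 is the signal of that percentile, and a level of 1 gene is never set against that of another. The 4 replicate numbers were the 4 slides, each holding 1 array of every group, and every group kept 1 slide position, which cannot be told apart from the group. Of 10 macrophage markers, 6 were higher and 1 was lower in each macrophage population than in monocytes. Among transcripts of the sort markers, Ccr2 was higher in CCR2+ than in MHC-IIHi macrophages and H2-Aa, H2-Ab1 and H2-Eb1 were higher in MHC-IIHi than in MHC-IIlo macrophages, the directions of the gates. Ly6c1 was also higher in CCR2+ than in MHC-IIHi macrophages (1.32, adjusted p = 0.0309), although all 3 macrophage gates were Ly6cNeg, and lower in CCR2+ macrophages than in monocytes by -3.12. Replicate 1 of the 3 macrophage groups had between 212 and 479 of 22037 features over 2 log2 units below the other 3 arrays of its group, more than any other macrophage array. Bulk RNA cannot tell fewer cells of a type from less RNA per cell.

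Across the 4 populations 6 of the 9 members differed, namely Il1b, Il1rn, Nlrp3, Mefv, Pycard and Gsdmd (limma F test, adjusted p under 0.05 over all features; 21.6% of all features did so). The smallest adjusted p was 1.98e-08, for Mefv. Il18, Nlrc4 and Casp1 did not pass, with adjusted p of 0.878, 0.320 and 0.135. With the slide as a block 7 members passed this test.

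**Figure D1:**
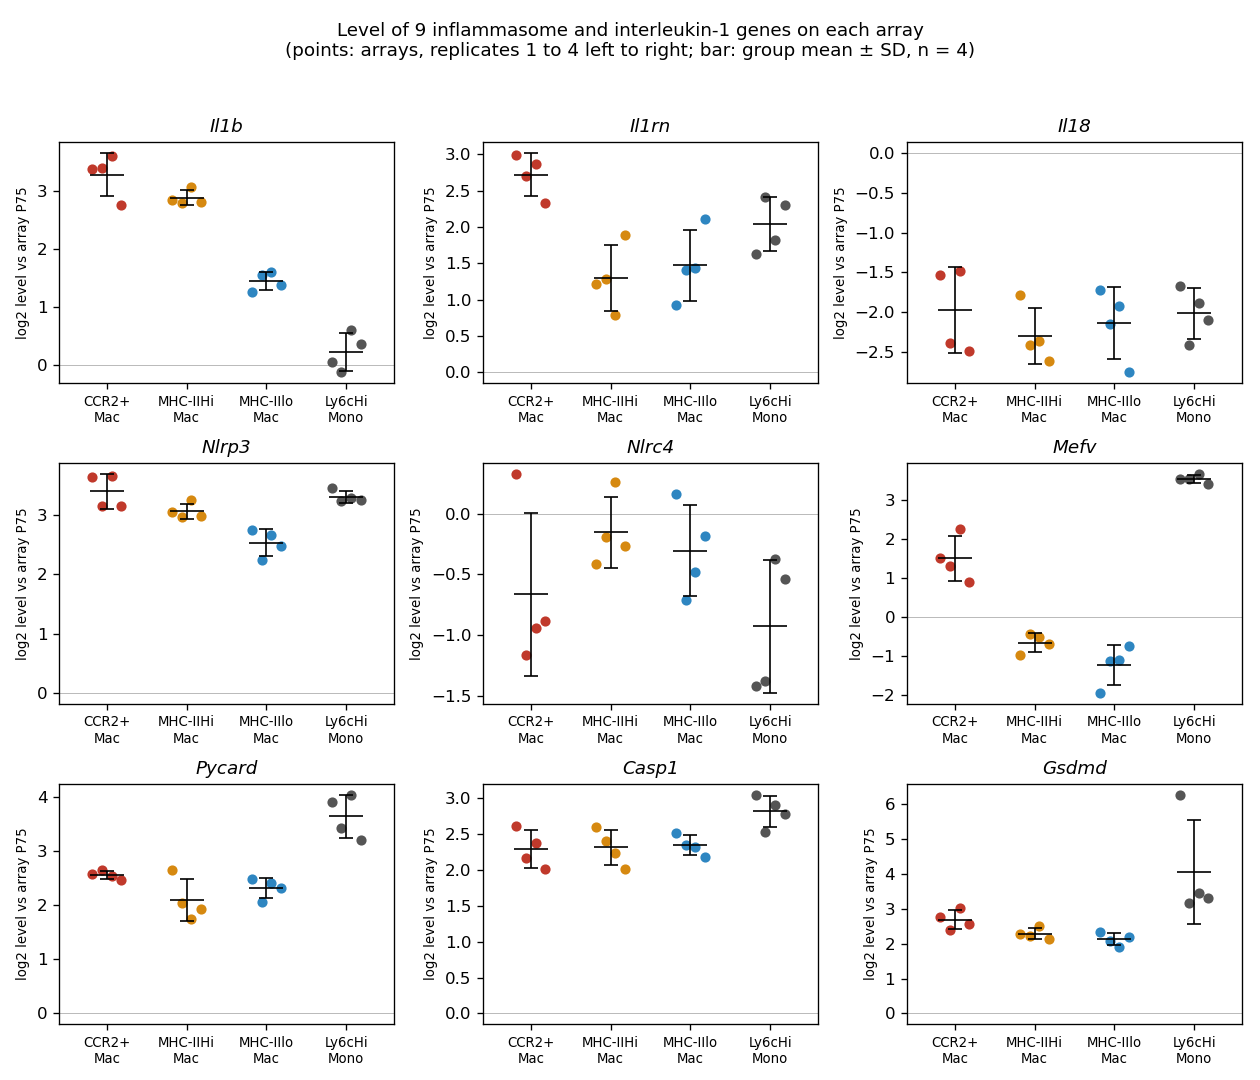
Log2 level relative to the 75th percentile of the array (vertical axis, a different range in each panel) for 9 genes in CCR2+, MHC-IIHi and MHC-IIlo heart macrophages and Ly6cHi blood monocytes. Points are arrays, replicates 1 to 4 from left to right, and bars are the mean ± SD (n = 4). Il1b steps down over the 4 groups, Mefv is high in monocytes and intermediate in CCR2+ macrophages, and 1 monocyte array stands at 6.26 for Gsdmd.

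Il1b, which encodes the precursor of interleukin-1 beta, was highest in CCR2+ macrophages and lowest in blood monocytes. It stood at 3.37, 3.40, 3.60 and 2.76 in CCR2+ macrophages (replicates 1 to 4) and at 2.85, 2.79, 3.07 and 2.82 in MHC-IIHi macrophages. It stood at 1.26, 1.55, 1.61 and 1.38 in MHC-IIlo macrophages, and at 0.06, -0.12, 0.62 and 0.37 in Ly6cHi monocytes. CCR2+ and MHC-IIHi arrays overlapped, while both lay above every MHC-IIlo array, and every MHC-IIlo array lay above every monocyte array. The order of the means was thus 3.28 ± 0.36, 2.88 ± 0.13, 1.45 ± 0.16 and 0.23 ± 0.33 (SD, n = 4 each), of which the first pair did not differ beyond its spread.

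Against Ly6cHi monocytes, Il1b was 8.29-fold higher in CCR2+ macrophages (log2 difference 3.05 ± 0.21 SE, limma adjusted p = 5.99e-08). It was 6.27-fold higher in MHC-IIHi macrophages (2.65, adjusted p = 1.82e-07) and 2.33-fold higher in MHC-IIlo macrophages (1.22, adjusted p = 0.0005). These 3 comparisons share the same 4 monocyte arrays. The difference had its sign on 4 of 4 slides in each.

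Among the heart macrophages, Il1b was 3.56-fold higher in CCR2+ than in MHC-IIlo cells (1.83 ± 0.21, adjusted p = 0.000123, between 1.38 and 2.11 on the 4 slides). It was 2.69-fold higher in MHC-IIHi than in MHC-IIlo cells (1.43 ± 0.21, adjusted p = 0.0172), between 1.24 and 1.58 on the 4 slides. Between CCR2+ and MHC-IIHi cells the difference was 0.40 (95% interval -0.05 to 0.85, adjusted p = 0.581). The call between MHC-IIHi and MHC-IIlo cells was lost with the array median as the scale (1.40, adjusted p = 0.108), with only that pair in the fit (adjusted p = 0.398) and in 5 of 16 fits that left out 1 array (adjusted p up to 0.0736).

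The Il1b probe was printed 10 times on each array, which shows the error of a single spot. The 10 spots read 14300 to 16300 on CCR2+ replicate 1, in the arbitrary intensity units of the scanner before scaling between arrays, against 804 to 907 on monocyte replicate 1. The SD over the spots used was at most 0.106 on the log2 scale, with a median of 0.056. Between arrays of 1 group the SD of Il1b was larger, 0.13 to 0.36.

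**Figure D2:**
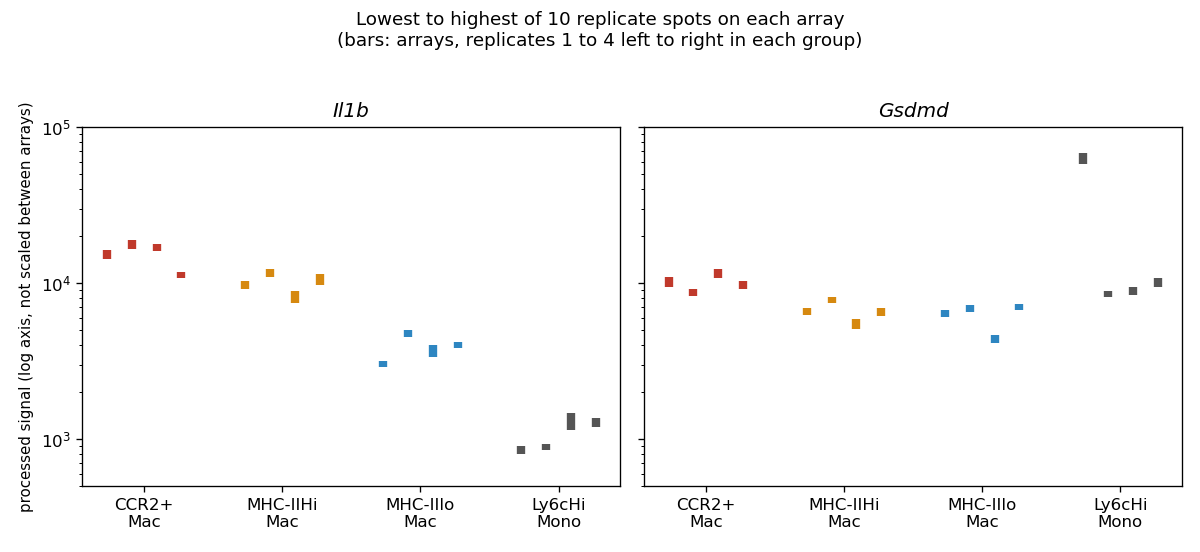
Lowest to highest processed signal of the 10 replicate spots on each array (log axis, arbitrary units, not scaled between arrays) for Il1b and Gsdmd. Bars are arrays, replicates 1 to 4 from left to right in CCR2+, MHC-IIHi and MHC-IIlo macrophages and Ly6cHi monocytes. The Gsdmd spots of monocyte replicate 1 read 57500 to 68200, above every other array.

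Immediate early genes, which respond within minutes to handling, stress and growth factors, differed in the same comparisons with monocytes. Of 14 immediate early genes tested, 13 were higher in each macrophage population than in monocytes. The remaining 1 was lower in MHC-IIHi and in MHC-IIlo macrophages and did not pass in CCR2+ macrophages. Median log2 differences over the list were 3.13 in CCR2+, 3.07 in MHC-IIHi and 2.76 in MHC-IIlo macrophages. Egr1, an immediate early transcription factor, was 5.70 higher in CCR2+ macrophages than in monocytes on the log2 scale, and was well above background on 4 of 4 CCR2+ and 2 of 4 monocyte arrays. The summed linear signal of the list, in units of the 75th percentile, was 162 to 237 on CCR2+ arrays, 185 to 250.0 on MHC-IIHi arrays, 153 to 226 on MHC-IIlo arrays and 26.8 to 39.9 on monocyte arrays. Between the macrophage populations none of the 14 passed the test without a slide block. With the slide as a block Nr4a1, a nuclear receptor of this list, was higher in CCR2+ than in MHC-IIlo macrophages (0.99, adjusted p = 0.00633) and lower in CCR2+ macrophages than in monocytes (-0.55, adjusted p = 0.0302). The part of this list in the Il1b difference from monocytes was not tested, and heart digestion and blood sampling cannot be told apart from the cell types.

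Transcripts of other heart cells also differed. All 7 cardiomyocyte genes tested were higher in MHC-IIHi and in MHC-IIlo macrophages than in monocytes, and 6 of 7 in CCR2+ macrophages. Their summed signal was 18.1 to 27.2 on CCR2+ arrays, 23.0 to 34.9 on MHC-IIHi arrays, 20.5 to 30.7 on MHC-IIlo arrays and 2.53 to 3.38 on monocyte arrays. None of them passed between macrophage populations, with or without the slide as a block, and their part in the comparisons with monocytes was not tested. Of 4 fibroblast genes tested, 3 were higher in each macrophage population than in monocytes, and of 5 endothelial genes 3 were higher in CCR2+, 2 in MHC-IIHi and 2 in MHC-IIlo macrophages. Of 5 lymphocyte genes, Ncr1 was lower in CCR2+ macrophages than in monocytes and no other passed in any pair without the block. With the block Cd3g was lower in CCR2+, MHC-IIHi and MHC-IIlo macrophages than in monocytes (adjusted p = 0.0275, 0.0227 and 0.0118) and Cd3e in MHC-IIHi macrophages (adjusted p = 0.0162). The fibroblast gene Dcn was then lower in CCR2+ than in MHC-IIlo macrophages (-1.08, adjusted p = 0.0285). Of 9 neutrophil genes tested, 1 was higher and 2 were lower in CCR2+ macrophages than in monocytes, and 1 was higher and 1 lower in MHC-IIHi and in MHC-IIlo macrophages. The neutrophil list summed to 33.4 to 43.5 on CCR2+ arrays, 32.9 to 51.8 on MHC-IIHi arrays, 31.3 to 43.1 on MHC-IIlo arrays and 48.3 to 53.7 on monocyte arrays. The neutrophil granule genes Ltf and Ngp were well above background on no array, and S100a8 on no macrophage array. Mmp9, a protease of neutrophil granules and of macrophages, was at least 4.16-fold lower in CCR2+ than in MHC-IIHi macrophages and at least 3.65-fold lower than in MHC-IIlo macrophages (adjusted p = 0.000928 and 0.000506).

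Il1rn, the receptor antagonist, was highest in CCR2+ macrophages. It stood at 2.99, 2.69, 2.87 and 2.32 in CCR2+ macrophages, and at 1.21, 1.28, 0.79 and 1.89 in MHC-IIHi macrophages. It stood at 0.93, 1.40, 1.44 and 2.11 in MHC-IIlo macrophages, and at 1.63, 2.41, 1.81 and 2.31 in Ly6cHi monocytes. Every CCR2+ array lay above every array of the other macrophage populations, and the monocyte arrays overlapped all 3. The probe, shown because it fixes which transcripts were read, lies on chromosome 2 and reaches the end of the coding sequence.
Il1rn probe: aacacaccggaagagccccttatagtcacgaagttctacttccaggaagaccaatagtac
Il1rn was 2.69-fold higher in CCR2+ than in MHC-IIHi macrophages (log2 difference 1.43 ± 0.29 SE, limma adjusted p = 0.0212) and 2.38-fold higher than in MHC-IIlo macrophages (1.25, adjusted p = 0.0259). On single slides the differences ran from 0.44 to 2.08 and from 0.21 to 2.06, positive on all 4. Both calls were lost with only the pair in the fit (adjusted p = 0.0532 and 0.0751) and in 6 of 16 fits each that left out 1 array (adjusted p up to 0.0836 and 0.0892). Between MHC-IIHi and MHC-IIlo macrophages the difference was -0.18 (adjusted p = 1.00). Against monocytes the differences were 0.68, -0.75 and -0.57 for CCR2+, MHC-IIHi and MHC-IIlo macrophages, with adjusted p of 0.109, 0.0811 and 0.196. The MHC-IIHi difference passed with median scaling (-0.86, adjusted p = 0.0409) and without MHC-IIHi replicate 4 (-0.94, adjusted p = 0.0346). The means were 2.72 ± 0.29 in CCR2+, 1.29 ± 0.45 in MHC-IIHi and 1.47 ± 0.48 in MHC-IIlo macrophages and 2.04 ± 0.37 in monocytes (SD, n = 4 each). Ranked by mean, CCR2+ macrophages were followed by monocytes, MHC-IIlo macrophages and MHC-IIHi macrophages, an order other than that of Il1b, and no pair of neighbours in this ranking passed the test.

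The other cytokines of the set gave little signal. Il1a, which encodes interleukin-1 alpha, was well above background on 1 of 16 arrays, an MHC-IIlo macrophage array at -2.24, and was not tested. Il18 was measured on all 16 arrays, at low levels. It ranged from -2.50 to -1.49 in CCR2+ macrophages, -2.62 to -1.79 in MHC-IIHi macrophages, -2.76 to -1.72 in MHC-IIlo macrophages and -2.42 to -1.67 in Ly6cHi monocytes. All 4 groups overlapped, and no pair passed the test.

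Mefv encodes pyrin, the sensor of inactivated RhoA. It was highest in monocytes and lowest in MHC-IIlo macrophages, the pair with the largest difference of any member, and CCR2+ macrophages stood in between. Its levels were 1.52, 1.31, 2.26 and 0.91 in CCR2+ macrophages, and -0.98, -0.44, -0.51 and -0.69 in MHC-IIHi macrophages. They were -1.94, -1.12, -1.09 and -0.74 in MHC-IIlo macrophages, and 3.54, 3.53, 3.66 and 3.40 in Ly6cHi monocytes. CCR2+ arrays overlapped with neither side, while MHC-IIHi and MHC-IIlo arrays overlapped each other.

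Mefv was 4.46-fold higher in CCR2+ than in MHC-IIHi macrophages (log2 difference 2.16 ± 0.28 SE, limma adjusted p = 0.00109) and 6.60-fold higher than in MHC-IIlo macrophages (2.72, adjusted p = 5.49e-05). It was 4.09-fold lower in CCR2+ macrophages than in monocytes (-2.03, adjusted p = 0.000106). It was 18.2-fold lower in MHC-IIHi macrophages (-4.19, adjusted p = 3.37e-08) and 27.0-fold lower in MHC-IIlo macrophages than in monocytes (-4.75, adjusted p = 8.05e-09). These 5 calls held under every alternative setting and with any 1 array left out. A second, dimmer Mefv probe followed the first over the 16 arrays (r = 0.942) with smaller differences: 1.31 for CCR2+ minus MHC-IIHi (adjusted p = 0.0210 with all probes tested singly), 1.42 for CCR2+ minus MHC-IIlo and -1.19 for CCR2+ minus monocytes. The probes lay furthest apart against monocytes, where the second gave -2.50 for MHC-IIHi and -2.61 for MHC-IIlo macrophages (adjusted p = 4.67e-06 and 2.75e-06), so the size of these differences depends on the probe.

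Part of the monocyte list differed between macrophage populations in the same direction as Mefv. Of 7 monocyte markers tested, 4 (Ccr2, Chil3, Ly6c1 and Plac8) were higher in CCR2+ than in MHC-IIHi macrophages and than in MHC-IIlo macrophages, and F13a1 was lower in both comparisons. The Chil3 call against MHC-IIHi macrophages was lost with the slide as a block (2.85, adjusted p = 0.0591). Ccr2 is also the gene that defined the gate. Their mean level was -0.47 to 1.43 on CCR2+ arrays, -1.70 to -1.15 on MHC-IIHi arrays, -2.07 to -1.09 on MHC-IIlo arrays and 3.65 to 3.93 on monocyte arrays. Summed linear signals were 12.3 to 33.3 on CCR2+ arrays, 16.4 to 25.8 on MHC-IIHi arrays, 23.3 to 32.5 on MHC-IIlo arrays and 167 to 226 on monocyte arrays.

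Dendritic cell genes also differed. Cd209a and Dpp4 were higher in CCR2+ than in MHC-IIHi macrophages (2 of 9 tested), and these and Batf3 than in MHC-IIlo macrophages (3 of 9). Against monocytes 0 were higher and 2 lower in CCR2+ macrophages (Btla and Dpp4), 1 higher and 3 lower in MHC-IIHi, and 0 higher and 3 lower in MHC-IIlo macrophages. With the slide as a block these were 1 and 2, 1 and 3, and 0 and 5. The list summed to 5.54 to 8.71 on CCR2+ arrays, 4.36 to 6.01 on MHC-IIHi arrays, 4.62 to 4.88 on MHC-IIlo arrays and 7.14 to 8.89 on monocyte arrays. Xcr1, which marks cross-presenting dendritic cells, was well above background on no macrophage array, and Ccl22 on no array. The part of the monocyte and dendritic cell genes in the Mefv, Il1rn, Nlrp3 and Il1b differences was not tested.

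Nlrp3, the sensor of many danger signals and of potassium loss, differed less. It stood at 3.64, 3.15, 3.66 and 3.15 in CCR2+ macrophages, and at 3.05, 2.97, 3.25 and 2.98 in MHC-IIHi macrophages. It stood at 2.75, 2.24, 2.67 and 2.48 in MHC-IIlo macrophages, and at 3.45, 3.24, 3.29 and 3.25 in Ly6cHi monocytes. On this probe, the brighter for Nlrp3, every MHC-IIlo array lay below every array of the other groups, and CCR2+ and monocyte arrays overlapped.

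Nlrp3 was 1.82-fold higher in CCR2+ than in MHC-IIlo macrophages (log2 difference 0.86 ± 0.18 SE, limma adjusted p = 0.0143) and 1.71-fold lower in MHC-IIlo macrophages than in monocytes (-0.77, adjusted p = 0.00522). MHC-IIHi macrophages exceeded MHC-IIlo macrophages by 0.53, without passing the test (adjusted p = 0.808) although the arrays did not overlap on this probe. CCR2+ exceeded MHC-IIHi macrophages by 0.34 (adjusted p = 0.598) and monocytes by 0.09 (adjusted p = 0.783). A second Nlrp3 probe gave 0.90 for CCR2+ minus MHC-IIlo (adjusted p = 0.0338 with all probes tested singly) but -0.46 for MHC-IIlo minus monocytes (adjusted p = 0.163), which did not pass. On it MHC-IIlo arrays reached 2.69 and overlapped the MHC-IIHi arrays (from 2.42) and the monocyte arrays (from 2.65). Its CCR2+ arrays, from 2.98, lay above every monocyte array, with a difference of 0.45 that did not pass (adjusted p = 0.168). The first probe's call between CCR2+ and MHC-IIlo macrophages was lost with median scaling (adjusted p = 0.124), with only that pair fitted (adjusted p = 0.112), and without CCR2+ replicate 1 or 3 (adjusted p up to 0.0556).

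Nlrc4, which works with NAIP proteins as the sensor of bacterial flagellin and secretion systems, ranged from -1.16 to 0.33 in CCR2+ macrophages and from -0.42 to 0.26 in MHC-IIHi macrophages. It ranged from -0.71 to 0.16 in MHC-IIlo macrophages and from -1.42 to -0.37 in Ly6cHi monocytes. The largest of its 6 differences was 0.77 ± 0.34, MHC-IIHi macrophages minus monocytes, which did not pass (adjusted p = 0.129).

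The adaptor was lower in every macrophage population than in monocytes, and gasdermin D in MHC-IIHi and MHC-IIlo macrophages, opposite to Il1b. Pycard, the adaptor between sensor and caspase-1, stood at 2.58, 2.65, 2.53 and 2.46 in CCR2+ macrophages, and at 2.64, 2.05, 1.75 and 1.94 in MHC-IIHi macrophages. It stood at 2.48, 2.05, 2.41 and 2.31 in MHC-IIlo macrophages, and at 3.91, 3.42, 4.04 and 3.20 in Ly6cHi monocytes. On scaled levels every monocyte array lay above every macrophage array. Before scaling, the CCR2+ and monocyte arrays overlapped. CCR2+ replicate 2 read 6.29 times a 75th percentile of 1670, and monocyte replicate 4 read 9.17 times one of 996. The Pycard probe, on chromosome 7, reads coding sequence and is shown because the call rests on 1 spot per array.
Pycard probe: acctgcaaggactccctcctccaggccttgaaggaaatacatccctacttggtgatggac
Pycard was lower than in monocytes by a log2 difference of -1.08 in CCR2+ macrophages (SE 0.23, limma adjusted p = 0.00264), -1.55 in MHC-IIHi macrophages (adjusted p = 0.000119) and -1.33 in MHC-IIlo macrophages (adjusted p = 0.00046). None of the 3 pairs of macrophage populations passed the test.

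Casp1 encodes caspase-1. It stood at 2.60, 2.16, 2.37 and 2.00 in CCR2+ macrophages, and at 2.59, 2.39, 2.23 and 2.01 in MHC-IIHi macrophages. It stood at 2.52, 2.34, 2.32 and 2.17 in MHC-IIlo macrophages, and at 3.04, 2.53, 2.89 and 2.77 in Ly6cHi monocytes. The differences from monocytes were -0.53, -0.50 and -0.47 ± 0.19 SE for CCR2+, MHC-IIHi and MHC-IIlo macrophages, with limma adjusted p of 0.059, 0.0744 and 0.0944. On scaled levels the monocyte arrays overlapped the CCR2+ and MHC-IIHi arrays but not the MHC-IIlo arrays. Before scaling they overlapped all 3 macrophage groups, so the Casp1 differences from monocytes depend on the scale. That scale, the 75th percentile, was 819 to 996 on monocyte arrays and 941 to 1670 on macrophage arrays. With the slide as a block all 3 differences passed, with an SE of 0.12 and adjusted p of 0.00556, 0.00731 and 0.0104. The CCR2+ difference also passed without the filter on dim probes and without CCR2+ replicate 1 or monocyte replicate 2 (adjusted p as low as 0.0358), and the MHC-IIHi difference without MHC-IIHi replicate 1 (adjusted p = 0.0468). Between macrophage populations the means of Casp1 were 2.28 ± 0.26, 2.31 ± 0.25 and 2.34 ± 0.14 (SD, n = 4 each).

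Gsdmd encodes gasdermin D. It stood at 2.77, 2.38, 3.02 and 2.55 in CCR2+ macrophages, and at 2.26, 2.23, 2.50 and 2.12 in MHC-IIHi macrophages. It stood at 2.33, 2.08, 1.90 and 2.18 in MHC-IIlo macrophages, and at 6.26, 3.15, 3.43 and 3.29 in Ly6cHi monocytes. On these scaled levels every monocyte array lay above every macrophage array, and monocyte replicate 1 lay far above the other 3. Before scaling, all 10 Gsdmd spots of that array read high, 57500 to 68200, while those of the other 3 monocyte arrays read 8080 to 10700. Spots on CCR2+ arrays read 8210 to 12300, so those 3 monocyte arrays lay above the CCR2+ arrays only after scaling. The 75th percentile used as the scale was 819 to 996 on monocyte arrays and 1380 to 1670 on CCR2+ arrays.

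The Gsdmd difference from monocytes was -1.35 ± 0.50 SE in CCR2+ macrophages (limma adjusted p = 0.067), -1.76 in MHC-IIHi macrophages (adjusted p = 0.0191) and -1.91 in MHC-IIlo macrophages (adjusted p = 0.0114). Only the last 2 passed. Without monocyte replicate 1 the differences were -0.61, -1.02 and -1.17 with an SE of 0.20, and all 3 passed (adjusted p = 0.0438, 0.00191 and 0.000606). The CCR2+ difference also passed without monocyte replicate 2 or 4 (adjusted p as low as 0.0394) and, at -1.35, with the slide as a block (adjusted p = 0.0435). With only the pair in the fit, the MHC-IIHi and MHC-IIlo calls were lost (adjusted p = 0.0881 and 0.0701).

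**Figure D3:**
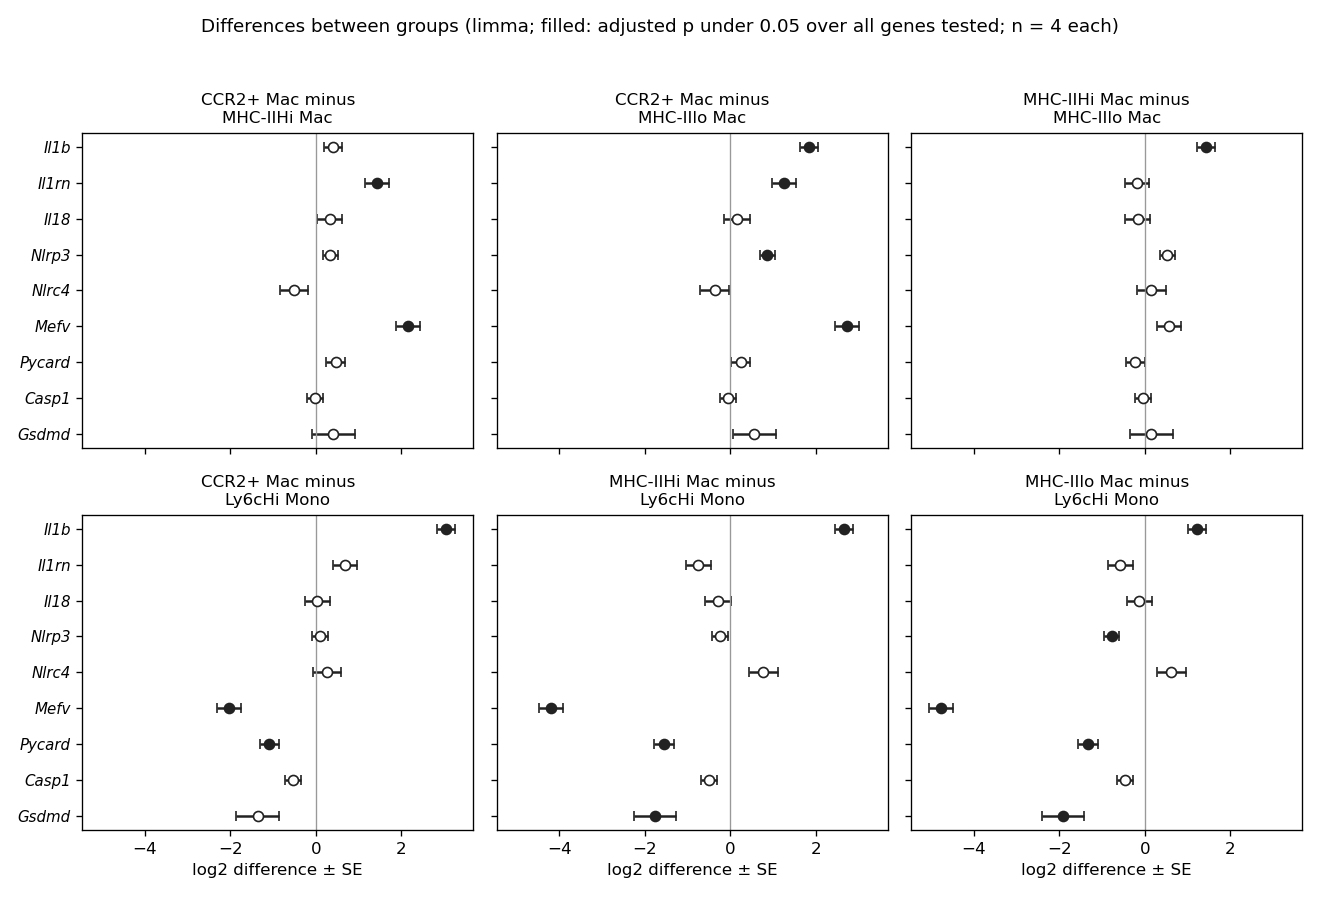
Log2 difference ± SE (horizontal axis) of 9 genes in the 6 pairs of groups, first group minus second. Filled points had an adjusted p under 0.05 over all features tested (limma, n = 4 arrays per group). Filled points lie to the right of 0 in each pair of macrophage populations, and on both sides in the 3 comparisons with monocytes.

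Counted by pair, 2 of the 9 members were higher in CCR2+ than in MHC-IIHi macrophages (Il1rn and Mefv) and none lower, where 1.25% of all features passed, 0.626% higher and 0.626% lower. In CCR2+ against MHC-IIlo macrophages 4 were higher (Il1b, Il1rn, Nlrp3 and Mefv) and none lower, where 2.8% of all features passed, 1.51% higher and 1.3% lower. In MHC-IIHi against MHC-IIlo macrophages Il1b was the 1 member called, where 0.0726% of all features passed, 0.0545% higher and 0.0182% lower. The median member difference was 0.40, 0.56 and 0.15 in these pairs, against -0.03, -0.04 and 0.00248 over all features.

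Against monocytes, 1 member was higher and 2 lower in CCR2+ macrophages, where 21.9% of all features passed, 9.87% higher and 12% lower. In MHC-IIHi macrophages 1 was higher and 3 lower, where 21.6% of all features passed, 10.1% higher and 11.5% lower. In MHC-IIlo macrophages 1 was higher and 4 lower, where 21.4% of all features passed, 10% higher and 11.4% lower. The higher member was Il1b each time. The lower ones were Mefv and Pycard in CCR2+ macrophages, these and Gsdmd in MHC-IIHi macrophages, and these 3 and Nlrp3 in MHC-IIlo macrophages, all set against the same 4 monocyte arrays. The median member difference was 0.04, -0.50 and -0.57, against -0.10, -0.05 and -0.06 over all features. The arrays of both groups did not overlap for 4, 4 and 6 of the 9 members, where 25.2%, 22.7% and 23% of all features did not. Between macrophage populations this held for 2, 5 and 2 members, where 7.81%, 8.25% and 2.34% of all features did not overlap.

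The wider pathway was read from lists of related genes grouped by role, of which 53 were tested and 25 passed in at least 1 pair. The share of all features passing in at least 1 pair was not counted. In single pairs 21.9%, 21.6% and 21.4% of all features passed in CCR2+, MHC-IIHi and MHC-IIlo macrophages against monocytes. Between macrophage populations at most 2.8% did, and with the slide as a block more passed in every pair. These shares are the base for the counts by list, here and above. Among the other sensors and adaptors, 14 tested, none passed between MHC-IIHi and MHC-IIlo macrophages. Against monocytes 2 were higher and 4 lower in CCR2+ macrophages, none higher and 6 lower in MHC-IIHi macrophages, and 1 higher and 6 lower in MHC-IIlo macrophages. With the slide as a block these were 2 and 5, 1 and 7, and 1 and 8. Nod1, a cytosolic sensor of bacterial peptidoglycan, was lower by -1.23 in CCR2+, -1.36 in MHC-IIHi and -1.28 in MHC-IIlo macrophages (adjusted p = 9.72e-05, 2.67e-05 and 4.67e-05). Card9, the adaptor of fungal lectin receptors, was lower by -0.90 in CCR2+, -1.17 in MHC-IIHi and -1.01 in MHC-IIlo macrophages. Pstpip1, which binds pyrin, was lower in MHC-IIHi (-1.01) and MHC-IIlo macrophages (-1.05), each call being lost in 6 of 24 alternative settings. With the block it was also higher in CCR2+ than in MHC-IIlo macrophages (0.64, adjusted p = 0.0281), and Aim2, a sensor of cytosolic DNA, was lower (-0.70, adjusted p = 0.0378).

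Nod2, a sensor of muramyl dipeptide, passed as lower in MHC-IIHi macrophages than in monocytes (adjusted p = 0.0265, lost in 6 of 23 alternative settings). No size is given for that pair, since 1 of 4 MHC-IIHi arrays and 2 of 4 monocyte arrays were well above background. It was at least 1.91-fold lower in MHC-IIlo macrophages than in monocytes (adjusted p = 0.00122), and was well above background on no MHC-IIlo array. For such a bound the dim group is set, array by array, to the faintest signal that counted as well above background. Its own signal is kept where higher. The p-value beside a bound is that of the fitted difference, which uses the dim signals, and does not test the bound. Nlrp12 was at least 1.53-fold higher in CCR2+ and at least 1.50-fold higher in MHC-IIlo macrophages than in monocytes, calls lost in 8 and 10 of 24 alternative settings. With the slide as a block the MHC-IIHi difference, at least 1.27-fold higher, also passed (adjusted p = 0.0131).

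The Naip genes, whose proteins hand bacterial ligands to NLRC4, are near-identical copies, so cross-hybridisation makes their values uncertain. Naip1 was lower than in monocytes by -0.72 in CCR2+, -1.74 in MHC-IIHi and -1.22 in MHC-IIlo macrophages, and Naip2 by -1.24, -1.55 and -1.86. The CCR2+ calls were lost in 6 of 24 alternative settings for Naip1, where the difference ran from -2.21 to -0.55, and in 5 of 24 for Naip2. Naip1 was higher in CCR2+ than in MHC-IIHi macrophages (1.01 ± 0.23, adjusted p = 0.0440), a call lost in 17 of 24 alternative settings. Nlrp1b, the mouse sensor of anthrax lethal factor and also one of several copies, was higher in CCR2+ than in MHC-IIlo macrophages (1.11, adjusted p = 0.0395, lost in 14 of 24) and than in monocytes (0.92, adjusted p = 0.0246, lost in 5 of 24).

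Among the other caspases and membrane proteins of cell lysis and purine signalling, 7 tested, Ninj1 was the 1 that passed between macrophage populations. NINJ1 ruptures the plasma membrane after gasdermin pores have formed. It stood at 2.49, 2.40, 3.07 and 1.88 in CCR2+ macrophages, at 3.91, 4.00, 4.86 and 3.28 in MHC-IIHi macrophages, at 4.88, 4.63, 5.42 and 4.47 in MHC-IIlo macrophages and at 3.41, 3.23, 3.47 and 2.64 in Ly6cHi monocytes. CCR2+ arrays lay below every MHC-IIHi and MHC-IIlo array, and overlapped the monocyte arrays. Ninj1 was lower in CCR2+ than in MHC-IIlo macrophages by -2.39 ± 0.34 (adjusted p = 0.000646), which held in all 24 alternative settings, and lower than in MHC-IIHi macrophages by -1.55 (adjusted p = 0.0322), which was lost in 8. MHC-IIlo macrophages exceeded monocytes by 1.66 (adjusted p = 0.00182). With the slide as a block Ninj1 passed in the other 3 pairs too: -0.84 for MHC-IIHi minus MHC-IIlo (adjusted p = 0.0404), -0.73 for CCR2+ minus monocytes (adjusted p = 0.00264) and 0.83 for MHC-IIHi minus monocytes (adjusted p = 0.00107). Ninj1 and the 4 members higher in CCR2+ than in MHC-IIlo macrophages thus lay on opposite sides of 0 in that pair.

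P2rx7, the receptor for extracellular ATP upstream of NLRP3, was higher than in monocytes in CCR2+ (0.92, adjusted p = 0.0214, lost in 4 of 24 alternative settings), MHC-IIHi (1.50, adjusted p = 0.000712) and MHC-IIlo macrophages (1.52, adjusted p = 0.000605). Its levels were 1.56, 1.03, 1.40 and 1.24 in CCR2+, 2.24, 1.44, 2.31 and 1.55 in MHC-IIHi and 2.34, 1.54, 2.13 and 1.61 in MHC-IIlo macrophages, and 0.49, -0.17, 0.51 and 0.71 in monocytes. Panx1, a channel that releases ATP, was lower by -1.54, -1.89 and -2.00 in CCR2+, MHC-IIHi and MHC-IIlo macrophages (adjusted p = 0.000484, 5.95e-05 and 3.37e-05). The receptor and the release channel thus moved oppositely against the same monocyte arrays. Casp4, the mouse caspase-11 that senses lipopolysaccharide in the cytosol, was lower in MHC-IIHi (-0.79, adjusted p = 0.0174, lost in 2 of 24) and MHC-IIlo macrophages (-0.65, adjusted p = 0.0483, lost in 17 of 24). With the block it was also lower in CCR2+ macrophages (-0.53, adjusted p = 0.0394). Casp8 did not pass in any pair.

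Of the interleukin-1 family ligands listed, 7 in all, 6 were on the array and none was bright enough to test, Il33 among them. Of 7 receptors and decoys tested, 2 were higher in every macrophage population than in monocytes and none was lower without the block, with which Il18r1, a chain of the interleukin-18 receptor, was lower in MHC-IIlo macrophages (-0.61, adjusted p = 0.0471). Il1rl1, the receptor of interleukin-33, stood at -0.82 to -0.27 in CCR2+, -0.55 to -0.10 in MHC-IIHi and -0.69 to -0.51 in MHC-IIlo macrophages, and at -5.30 to -5.00 in monocytes, where no array was well above background. It was at least 6.17-fold, 7.09-fold and 5.70-fold higher in CCR2+, MHC-IIHi and MHC-IIlo macrophages than in monocytes (limma adjusted p = 1.30e-10, 3.68e-11 and 5.56e-11). Il18bp, the secreted protein that binds and neutralises interleukin-18, was at least 4.11-fold, 3.97-fold and 3.59-fold higher (adjusted p = 2.95e-05, 2.41e-05 and 3.94e-05), and was well above background on all 12 macrophage arrays and on no monocyte array. Both genes passed the brightness filter through macrophage arrays alone. Their p-values use monocyte signals that were not well above background, and do not test the bounds. None of the 7 passed between macrophage populations, with or without the block. Il1r2, the decoy receptor of interleukin-1, gave 2.29 ± 0.79 for CCR2+ minus MHC-IIlo macrophages without passing (adjusted p = 0.197).

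Of 15 genes of interleukin-1 receptor signalling, none passed between macrophage populations without the slide block. With it Tnfaip3 (1.41, adjusted p = 0.00364) and Nfkb1 (0.61, adjusted p = 0.0181) were higher in CCR2+ than in MHC-IIlo macrophages. Against monocytes 3 were higher and 3 lower in CCR2+, 2 higher and 2 lower in MHC-IIHi, and 2 higher and 3 lower in MHC-IIlo macrophages, and with the block 3 were higher and 4 lower in each. The higher ones without the block were inhibitors and products of NF-kappaB signalling. Nfkbiz, which encodes the nuclear regulator IkappaB-zeta, stood at 3.48, 3.40, 3.57 and 3.03 in CCR2+, at 3.59, 3.32, 3.44 and 3.16 in MHC-IIHi and at 3.13, 2.91, 3.12 and 2.60 in MHC-IIlo macrophages, and at 0.36, 0.11, 1.19 and 0.75 in monocytes. It was higher by 2.77, 2.78 and 2.34 (adjusted p = 5.11e-07, 3.25e-07 and 2.02e-06). Nfkbia, which encodes IkappaB-alpha, was higher by 1.27, 1.31 and 1.20 in CCR2+, MHC-IIHi and MHC-IIlo macrophages. Tnfaip3, which encodes the deubiquitinase A20, was higher in CCR2+ macrophages than in monocytes (1.67, adjusted p = 0.00564), a call lost with the normexp background correction, and with the block also in MHC-IIHi macrophages (0.86, adjusted p = 0.0121). Myd88, the adaptor of the interleukin-1 receptor, was lower by -0.79, -1.13 and -1.08 in CCR2+, MHC-IIHi and MHC-IIlo macrophages, and Nfkb1 by -0.54, -0.92 and -1.15. The CCR2+ calls were lost in 7 of 24 alternative settings for Myd88 and in 16 of 24 for Nfkb1 (adjusted p up to 0.393), and the other 4 in none. Tab2, a partner of the kinase TAK1, was lower in CCR2+ (-0.60, lost in 7 of 24 alternative settings) and MHC-IIlo macrophages (-0.69, lost in 2 of 24), and with the block in MHC-IIHi macrophages (-0.43, adjusted p = 0.0107). The 13 immediate early genes described above were higher in the same comparisons, and their part in these differences was not tested.

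Among the brakes and modifiers, 10 tested, Cd36, a scavenger receptor that takes up oxidised lipids, was higher than in monocytes by 2.07, 2.22 and 2.97 in CCR2+, MHC-IIHi and MHC-IIlo macrophages (adjusted p = 0.000589, 0.000272 and 1.53e-05). Zbp1, a sensor of Z-form nucleic acid, was lower by -0.99, -1.17 and -1.32. Serpinb1a, an inhibitor of neutrophil proteases and of inflammatory caspases, was lower in CCR2+ (-1.65, adjusted p = 0.00696) and MHC-IIHi macrophages (-2.10, adjusted p = 0.00107), where 2 of 4 arrays were well above background. Serpinb9 was higher in MHC-IIHi macrophages than in monocytes (1.43, adjusted p = 0.0415), a call lost in 15 of 24 alternative settings, the slide as a block among them (adjusted p = 0.0528), and was well above background on 1 of 4 monocyte arrays. Between macrophage populations only Card19 passed without the block, lower in CCR2+ than in MHC-IIlo macrophages (-0.99, adjusted p = 0.0467), a call lost in 16 of 24. With the block Card19 was also lower in CCR2+ macrophages than in monocytes (-0.65, adjusted p = 0.00908), and Gbp2 (0.82, adjusted p = 0.0155) and Trim30a (0.69, adjusted p = 0.0276) were higher in CCR2+ than in MHC-IIlo macrophages.

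**Figure D4:**
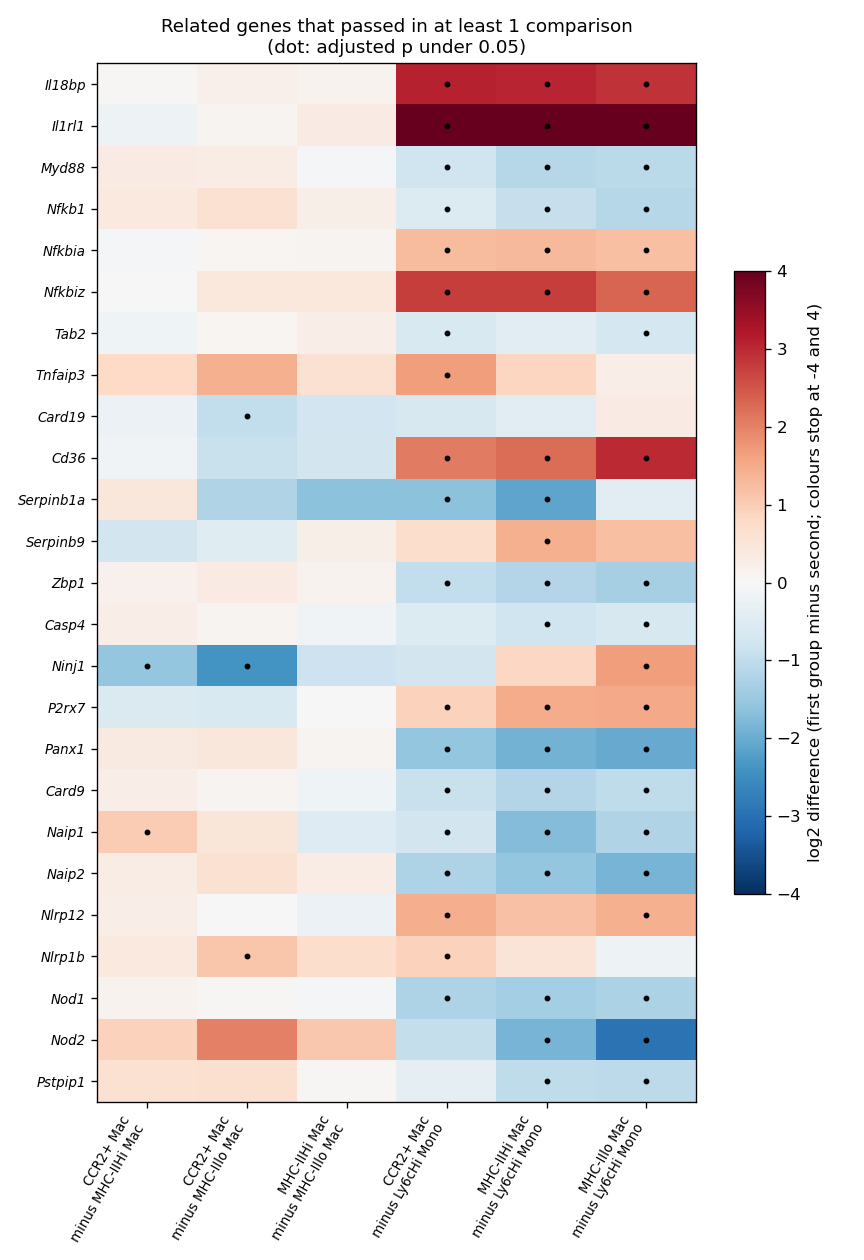
Log2 difference, first group minus second, of the 25 related genes that passed in at least 1 of the 6 pairs (colour scale, stopped at -4 and 4; dots mark an adjusted p under 0.05). Colours show the fitted differences, also for Il1rl1, Il18bp, Nlrp12 and Nod2, whose dim groups give only a bound. Dots are few in the 3 left columns, between macrophage populations, and most lie in the 3 right columns, against the same monocyte arrays.

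The genes whose levels over the 16 arrays were most like those of each differing member are given as a description, since arrays share group and slide. For Il1b they were Acvrl1 (Pearson r = 0.941), Tent5c (0.935) and Tgfbr1 (0.935). For Mefv they were Sirpb1a (0.987), Napsa (0.986) and Galnt9 (0.986). Nlrp3 was closest to Gm4673 (0.955), Rin3 (0.949) and Dock10 (0.922), and Il1rn to Olfm1 (0.893), Gm8149 (0.890) and Gpc1 (0.876). Pycard was closest to Slc25a5 (0.969), Tmc6 (0.964) and Gm5617 (0.964), and Gsdmd to Pgk1 (0.961), Tmx4 (0.952) and 6330575P09Rik (0.952). Without monocyte replicate 1, left out here after its Gsdmd level was seen, the Gsdmd values were 0.799, 0.739 and 0.804. Among the members, Mefv and Pycard had r = 0.821 and Pycard and Casp1 r = 0.802, while Il1b had r = -0.679 with Pycard and -0.417 with Mefv.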

How the data were processed

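The authors' deposited scanner files hold 1 intensity per spot, the processed signal in arbitrary units, from which Agilent Feature Extraction 11.5.1.1 had subtracted background and spatial trend per the file headers, from 1 ng of Cy5-labelled RNA per sample per the labels' protocols. Partek is named in the submitters' processing notes with no version. The authors' deposited value table holds log2 signal. Each of its 16 columns matched the scanner array of another sample (r of at least 0.995, against at most 0.969 with its own label), 12 of them an array of another group, so it was not used.

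Column headings were shifted against their contents in 15 of 16 files, and columns were found from their contents. Control spots (1377 of 44397) and spots marked as outliers were left out, spots of a probe were averaged, log2 taken and the 75th percentile of each array (819 to 1670) subtracted. No spot was saturated. Probes well above background on at least 4 of 16 arrays were kept (27643), and the brightest per gene gave 22037 features. Symbols came from RefSeq accessions. The fit used limma 3.58.1 (R 4.3.3; 1 mean per group, 16 arrays, 12 residual degrees of freedom, no block, two-sided, Benjamini-Hochberg over all features within each comparison, threshold 0.05), and the procedure was tested on simulated data. The number of arrays limits the precision. The alternatives were normexp correction, quantile and median scaling, the slide as a block, other filters, probe means, fitting pairs only, and leaving out each array.

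Replicate numbers were slides, and deviations of same-numbered arrays from their group means correlated in all 24 pairs (r from 0.139 to 0.638). The numbers therefore pair the arrays by slide, and the labels do not say whether they also pair mice. Blocked values stand beside the calls printed in the text that they change, while other changes among listed genes are given as counts or not printed.

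Members, gene lists and tests were chosen with earlier results of these data known. Named are all members, related genes called in at least 1 pair, markers called in the same pair as a member, and the 3 nearest genes by correlation. A few that did not pass were named after their values were seen (Casp8, Il33 and Il1r2), as were genes called only with the slide block. One gene of the related lists is not reported here and is left out of their counts and of the plot of related genes.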

Additional observations from a re-analysis of the deposited data

Results flagged for a closer look

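Gsdmd stood at 6.26 on Ly6cHi monocyte replicate 1, against 3.15, 3.43 and 3.29 on the other 3 monocyte arrays, a gap of 0.91 of the group's whole range. It was singled out because that gap is larger than Dixon's test allows for 4 samples. Of 40 sets of 4 arrays checked (10 genes in 4 groups) it was the only one, and chance alone flags about 1 in 20. All 10 Gsdmd spots of that array read 57500 to 68200. On the same array 90 of 22037 features lay over 2 log2 units above the other 3 monocyte arrays and 97 lay as far below, and 36 features had a gap at least as large as the 2.83 of Gsdmd. Each difference of Gsdmd from monocytes is therefore given with and without this array.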

How the results depend on the processing

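Of the 9 members, 2, 4, 1, 3, 4 and 5 were called in CCR2+ minus MHC-IIHi, CCR2+ minus MHC-IIlo, MHC-IIHi minus MHC-IIlo, and CCR2+, MHC-IIHi and MHC-IIlo minus monocytes, and 6 in the F test. Leaving out 1 array gave 1 to 2, 2 to 4, 0 to 1, 3 to 5, 4 to 5, 5 and 5 to 6. With only the pair fitted, CCR2+ minus MHC-IIHi kept 1 call, CCR2+ minus MHC-IIlo 2 and MHC-IIHi minus MHC-IIlo 0, which also had 0 with median scaling. With the slide as a block, CCR2+ minus monocytes had 5, gaining Casp1 and Gsdmd. In the pairs, the block changed no other member's call apart from Casp1 in MHC-IIHi and MHC-IIlo macrophages against monocytes. In the F test 7 members were called with the block. Signs turned only for small differences that never passed: Casp1 CCR2+ minus MHC-IIHi (0.045 with normexp, 0.034 with median scaling, -0.13 to 0.070 leaving out 1 array) and CCR2+ minus MHC-IIlo (0.0024 with normexp, -0.16 to 0.038), Il18 CCR2+ minus monocytes (-0.077 with normexp, -0.035 with quantile and -0.018 with median scaling, -0.13 to 0.21) and Nlrp3 MHC-IIHi minus monocytes (0.043 with quantile scaling). Leaving out 1 array also turned Il18 CCR2+ minus MHC-IIlo (-0.047 to 0.33) and minus monocytes in MHC-IIlo (-0.26 to 0.084), Il1rn (-0.37 to 0.038) and Casp1 (-0.13 to 0.068) MHC-IIHi minus MHC-IIlo, and Nlrc4 CCR2+ minus monocytes (-0.069 to 0.45). The cause of these changes was not tested. Over all features the 6 pairs had 276, 618, 16, 4830, 4751 and 4725 calls, and 552, 1272, 77, 7446, 6992 and 7095 with the block, more in every pair. Median scaling left 173, 385 and 8 between macrophage populations, pairs fitted alone 332 in CCR2+ minus MHC-IIlo and 0 in MHC-IIHi minus MHC-IIlo, and leaving out 1 array 155 to 343, 412 to 661 and 0 to 18. Without the filter on dim probes CCR2+ minus monocytes had 8609 calls, 2355 higher and 6254 lower, against 2175 and 2655. The median over all features in the comparisons with monocytes was -0.10 to -0.05, and -0.25 to -0.20 with normexp. Of the members, Il1a was too dim to test.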
